A study of Tupaia belangeri chinensis with 12 samples.

Results

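The genes described here build the growth cone and the cytoskeleton of young neurons. They are 10 genes chosen by symbol in the deposited tables: GAP43, STMN1, STMN2, MAP1B, MAP2, MAPT, DCX, TUBB3, NEFM and NEFLli1. All 10 were found among 81414 gene IDs, and all 10 were among the 14101 genes expressed highly enough to be tested. The question was in which layer of the developing cortical wall each gene comes on, from the ventricle outwards.

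A newborn cortical neuron leaves the ventricular surface, migrates outwards along radial glia and grows an axon. GAP43 is a membrane-bound protein of the growth cone, the motile tip of the axon. Stathmins bind free tubulin and promote the shrinking of microtubules, while the microtubule-associated proteins MAP1B, MAP2, MAPT (tau) and DCX (doublecortin) bind and stabilise them. TUBB3 is the beta-tubulin used as a marker of young neurons, and neurofilaments such as NEFM form the intermediate filaments that fill the growing axon.

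The study sequenced poly(A) RNA of fetal cortex from the Chinese tree shrew (Tupaia belangeri chinensis), a small mammal that is a close relative of primates. The layers were cut from frozen, Nissl-stained sections by laser, and the labels give embryonic day 37 for all 12 libraries. There are 3 libraries each of the ventricular zone (VZ), which lines the ventricle, the inner and the outer subventricular zone (ISVZ and OSVZ) and the cortical plate (CP), where neurons settle. No treatment or genotype separates them. Whether the 3 libraries of a layer stem from separate animals is not stated, and the p-values therefore rest on the spread among these libraries, part or all of which may be technical.

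Levels are given as scaled FPKM (fragments per kilobase of transcript relative to the total of the library, further scaled by 1 factor per library), which is a level per length. The summed FPKM of a library ranged from 244696 to 276661, and 12159 to 13420 genes reached 1 FPKM. The layer names were checked against marker genes. PAX6, a radial glial transcription factor, averaged 28.6 ± 7.45 scaled FPKM in VZ, 19.6 ± 7.42 in ISVZ, 15.4 ± 2.76 in OSVZ and 0.434 ± 0.295 in CP (SD, n = 3 each). EOMES, which marks intermediate progenitors, averaged 57.3 ± 13.4, 54.4 ± 21.5, 44.1 ± 9.51 and 0.231 ± 0.123 scaled FPKM in the same layers, and MKI67, a gene of dividing cells, averaged 37.0 ± 8.47, 32.4 ± 11.1, 19.2 ± 7.68 and 0.455 ± 0.205. NEUROD2, a transcription factor of projection neurons, averaged 17.7 ± 9.26 scaled FPKM in VZ, 46.9 ± 26.9 in ISVZ, 91.7 ± 24.4 in OSVZ and 73.8 ± 8.92 in CP. For PAX6, EOMES and MKI67 the CP libraries lay below all others, but ISVZ overlapped both VZ and OSVZ. NEUROD2 separated ISVZ from VZ, but its OSVZ libraries overlapped both ISVZ and CP. Choroid plexus RNA was unequal among the VZ libraries: TTR, its transport protein, had 2514 scaled FPKM in VZ 2, 529 in VZ 1 and 33.8 in VZ 3. Outside VZ it reached at most 48.4, in ISVZ, so VZ 3 did not stand above every ISVZ library.

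GAP43 showed the steepest gradient of the 10 genes. It stood at 11.7, 9.69 and 26.1 scaled FPKM in VZ 1, 2 and 3, at 32.1, 32.4 and 31.6 in ISVZ, at 80.5, 80.0 and 223 in OSVZ, and at 278, 341 and 283 in CP. No library of an outer layer overlapped the layer below it. The VZ mean was 5.26% of the CP mean and the ISVZ mean was 10.6%, while OSVZ reached 42.5%. Between CP and VZ the log2 difference was 4.28 ± 0.39 (SE), with an adjusted p (Benjamini-Hochberg) of 4.63e-06 by limma over all genes tested. In bulk layers, fewer cells of a type and less RNA per cell cannot be told apart. Differences are on the log2(scaled FPKM + 1) scale, which understates the change of genes near 1.

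The steps between neighbouring layers were 1.10 ± 0.39 for ISVZ minus VZ, 1.79 ± 0.39 for OSVZ minus ISVZ and 1.40 ± 0.39 for CP minus OSVZ on the log2 scale for GAP43. Of these the outermost step passed the threshold of 0.05 (adjusted p = 0.0194), the middle one lay close to it (adjusted p = 0.0545) and the innermost did not reach it (adjusted p = 0.115). The CP step of GAP43 lost its call without OSVZ 1, OSVZ 2 or CP 2 (adjusted p 0.0778, 0.0758 and 0.0625). GAP43 had an ISVZ step past the threshold without VZ 3 (1.50, adjusted p = 0.0460) or without OSVZ 3 (1.10, adjusted p = 0.0321), and an OSVZ step past it without OSVZ 2 (2.03, adjusted p = 0.0434). GAP43 lies at chr1:27385382-27502239 in the coordinates of the deposited tables.

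**Figure D1:**
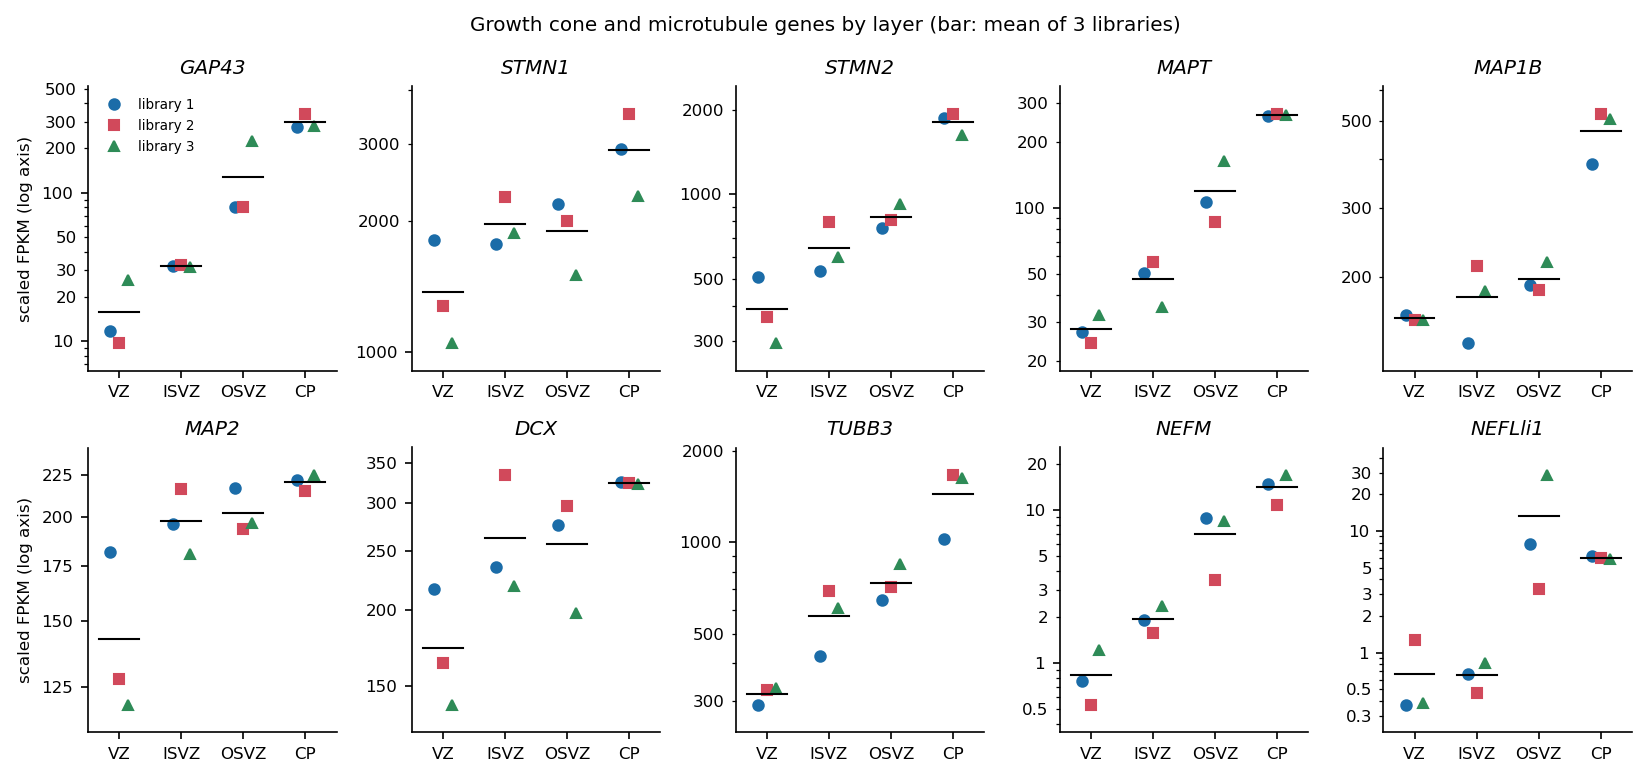
Scaled FPKM (vertical log axis, each panel with its own range) of the 10 genes in VZ, ISVZ, OSVZ and CP; each symbol is 1 library and the bar is the mean of 3. GAP43, MAPT and NEFM climb at each layer, MAP1B is nearly level until CP, and NEFLli1 has its highest library in OSVZ.

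The 2 stathmins differed in level and in gradient. STMN1, which is also made by dividing progenitors, was abundant from the ventricle on, with 1806, 1277 and 1048 scaled FPKM in VZ, 1769, 2269 and 1874 in ISVZ, 2193, 1997 and 1506 in OSVZ, and 2931, 3529 and 2285 in CP. VZ already held 47.2% of the CP mean, and the libraries of VZ, ISVZ and OSVZ overlapped each other. STMN1 was higher in CP than in VZ by 1.10 ± 0.24 on the log2 scale (adjusted p = 0.00249). None of its 3 steps passed the threshold: the log2 differences were 0.55 ± 0.24 into ISVZ (adjusted p = 0.203), -0.06 ± 0.24 into OSVZ (adjusted p = 0.923) and 0.61 ± 0.24 into CP (adjusted p = 0.0734). Without CP 3, the lowest CP library, the step into CP passed at 0.78 (adjusted p = 0.0391).

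STMN2, the stathmin of neurons that sits on membranes of the growth cone, had the larger gradient. Its libraries held 507, 365 and 294 scaled FPKM in VZ, 531, 796 and 599 in ISVZ, 761, 811 and 925 in OSVZ, and 1865, 1939 and 1624 in CP. ISVZ lay just above VZ, OSVZ overlapped ISVZ, and every CP library stood well above OSVZ. STMN2 was higher in CP than in OSVZ by 1.12 ± 0.21 on the log2 scale (adjusted p = 0.00228), a call kept in all 19 alternatives run (other scalings, filters and pseudocount, a replicate block, and each library left out). The step into ISVZ, 0.74 ± 0.21, had an adjusted p of 0.05004, just above the threshold, and passed without VZ 1 (0.94, adjusted p = 0.0155). The step into OSVZ was 0.39 ± 0.21 (adjusted p = 0.329), and CP minus VZ was 2.25 ± 0.21 (adjusted p = 4.97e-06). STMN1 lies at chr13:92283114-92296892 and STMN2 at chr14:58647389-58710342.

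Among the microtubule-associated proteins, MAPT followed GAP43 most closely. MAPT, the axonal protein tau, stood at 27.2, 24.1 and 32.3 scaled FPKM in VZ, at 50.3, 56.5 and 35.4 in ISVZ, at 107, 86.1 and 164 in OSVZ, and at 262, 269 and 264 in CP. The 4 layers did not overlap at any step, and VZ held 10.5% of the CP mean. Between CP and VZ the log2 difference was 3.21 ± 0.22 (adjusted p = 6.99e-07). MAPT rose by 1.28 ± 0.22 into OSVZ (adjusted p = 0.0450) and by 1.20 ± 0.22 into CP (adjusted p = 0.00244), while the step into ISVZ was 0.73 ± 0.22 (adjusted p = 0.0707). The call into OSVZ was fragile for MAPT: it was lost on leaving out any 1 library other than ISVZ 1 or OSVZ 2, with adjusted p-values of 0.0528 to 0.201. Without ISVZ 3 the step into ISVZ passed for MAPT (0.92, adjusted p = 0.0358), as it did without OSVZ 3 (0.73, adjusted p = 0.0248).

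MAP1B, an early microtubule-associated protein of growing axons, came up at a single step. It held 160, 155 and 155 scaled FPKM in VZ, 135, 214 and 184 in ISVZ, 190, 185 and 217 in OSVZ, and 388, 521 and 504 in CP. ISVZ overlapped both VZ and OSVZ, OSVZ lay above VZ, and every CP library lay above all of the inner layers. The step into CP was 1.24 ± 0.17 on the log2 scale (adjusted p = 0.000311), against 0.15 ± 0.17 into ISVZ (adjusted p = 0.647) and 0.17 ± 0.17 into OSVZ (adjusted p = 0.625). MAP1B was also tested for its shape, the mean of ISVZ and OSVZ minus the mean of VZ and CP. Its value was -0.54 ± 0.12 (adjusted p = 0.0120), so the middle layers lay below the midpoint of the outer ones. This was 1 of 10 genes called lower in that test, where 8.22% of all genes tested were, and the call held in all 19 alternatives. For the other 9 genes the shape did not pass, with adjusted p-values of 0.258 to 0.916.

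MAP2, a microtubule-associated protein of dendrites and cell bodies, had the flattest profile. Its values were 182, 128 and 119 scaled FPKM in VZ, 197, 217 and 181 in ISVZ, 217, 194 and 197 in OSVZ, and 222, 215 and 225 in CP. Each layer overlapped its neighbour, while OSVZ and CP each lay above VZ in every library. CP exceeded VZ by 0.65 ± 0.15 on the log2 scale (adjusted p = 0.00319). The steps of MAP2 were 0.49 ± 0.15 into ISVZ (adjusted p = 0.0661), 0.03 ± 0.15 into OSVZ (adjusted p = 0.934) and 0.12 ± 0.15 into CP (adjusted p = 0.560). Leaving out VZ 1, the highest VZ library, gave a call into ISVZ for MAP2 (0.67, adjusted p = 0.00680) and a shape past the threshold (0.27, adjusted p = 0.0381). The level of MAP2 is uncertain, since an antisense entry, MAP2-AS-3, overlaps it by 3626 bases and averaged 165 ± 27.95, 217 ± 37.1, 209 ± 17.7 and 275 ± 65.0 scaled FPKM in VZ, ISVZ, OSVZ and CP. Whether counting used strand is not stated, so reads of the 2 entries may have been shared.

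DCX, which stabilises microtubules in migrating neurons, was also present from the ventricle on. It stood at 217, 164 and 140 scaled FPKM in VZ, at 236, 334 and 219 in ISVZ, at 276, 297 and 198 in OSVZ, and at 325, 324 and 323 in CP. VZ held 53.5% of the CP mean, ISVZ lay just above VZ, OSVZ overlapped ISVZ, and CP lay above OSVZ with almost no spread. DCX was higher in CP than in VZ by 0.92 ± 0.21 on the log2 scale (adjusted p = 0.00294). Its steps were 0.59 ± 0.21 (adjusted p = 0.106), -0.03 ± 0.21 (adjusted p = 0.963) and 0.35 ± 0.21 (adjusted p = 0.220) into ISVZ, OSVZ and CP. Without VZ 1 the step of DCX into ISVZ passed at 0.76 (adjusted p = 0.0496). The 4 genes lie at chr16:60868976-60991804 (MAPT), chr11:1055300-1170091 (MAP1B), chr1:192395217-192743866 (MAP2) and chr3:86862445-87176524 (DCX). MAPT shares 956 bases with KANSL1, which averaged 13.8 ± 1.18, 15.8 ± 1.13, 15.0 ± 2.36 and 10.3 ± 0.443 scaled FPKM and was lower in CP than in VZ by -0.39 ± 0.12 (adjusted p = 0.0159), opposite to MAPT.

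TUBB3 rose in both the innermost and the outermost step. It held 292, 327 and 331 scaled FPKM in VZ, 423, 689 and 609 in ISVZ, 647, 713 and 846 in OSVZ, and 1025, 1662 and 1628 in CP. ISVZ lay above VZ, OSVZ overlapped ISVZ, and CP lay above OSVZ. The log2 differences were 0.83 ± 0.22 into ISVZ (adjusted p = 0.0412), 0.38 ± 0.22 into OSVZ (adjusted p = 0.382), 0.94 ± 0.22 into CP (adjusted p = 0.00822) and 2.15 ± 0.22 for CP minus VZ (adjusted p = 1.11e-05). The step of TUBB3 into ISVZ lost its call without VZ 1, VZ 2, VZ 3, ISVZ 2, ISVZ 3, OSVZ 1 or OSVZ 2, with adjusted p-values of 0.0528 to 0.166. That call was also lost with FPKM as deposited, quantile normalisation or no filter (limma adjusted p 0.0551, 0.109 and 0.146). The step into CP kept its call in all 19 alternatives. TUBB3 lies at chr28:14789407-14797862.

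The neurofilament genes were by far the least abundant of the 10. NEFM, the medium neurofilament subunit, stood at 0.762, 0.535 and 1.21 scaled FPKM in VZ, at 1.91, 1.58 and 2.38 in ISVZ, at 8.93, 3.49 and 8.45 in OSVZ, and at 14.8, 10.8 and 16.9 in CP. No library overlapped the layer below, and VZ held 5.91% of the CP mean. NEFM was higher in CP than in VZ by 3.04 ± 0.28 on the log2 scale (adjusted p = 5.19e-06). The steps were 0.69 ± 0.28 into ISVZ (adjusted p = 0.170), 1.35 ± 0.28 into OSVZ (adjusted p = 0.0545) and 1.00 ± 0.28 into CP (adjusted p = 0.0207). For NEFM the call into CP was lost without OSVZ 2, CP 1 or CP 3 (adjusted p 0.0533, 0.0582 and 0.0682). Without OSVZ 2, the lowest OSVZ library for NEFM, the steps into ISVZ (0.69, adjusted p = 0.04995) and into OSVZ (1.72, adjusted p = 0.0118) passed the threshold.

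NEFLli1 was the exception to the outward gradient. It carries the symbol of NEFL, the light neurofilament subunit, with the ending that these tables give to further copies. The entry named NEFL itself (chr14:80889473-80891465) was listed at 0 in every library. NEFLli1 lies at chr20:10502144-10511950, 28320 bases from NEFM at chr20:10461985-10473823. Reads could be divided between copies, so the level of NEFLli1 is uncertain.

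NEFLli1 had 0.372, 1.26 and 0.383 scaled FPKM in VZ, 0.667, 0.463 and 0.814 in ISVZ, 7.78, 3.34 and 28.8 in OSVZ, and 6.18, 5.94 and 5.90 in CP. OSVZ lay above ISVZ in every library, but it overlapped CP, and OSVZ 3 alone was far above all the others. The step into OSVZ was 2.67 ± 0.52 on the log2 scale (adjusted p = 0.0499), and NEFLli1 was higher in CP than in VZ by 2.11 ± 0.52 (adjusted p = 0.00493). CP minus OSVZ was -0.57 ± 0.52 (adjusted p = 0.432), and without OSVZ 3 it was 0.19 (adjusted p = 0.663). The OSVZ call of NEFLli1 was lost on leaving out any 1 library other than ISVZ 1 or OSVZ 2 (adjusted p 0.0553 to 0.201), and without OSVZ 3 the step was 1.91. The bounds deposited with each value show how little the low values of NEFLli1 weigh. Their half-width was 78.8% of the value in the median library, against 8.87% for NEFM, 3.88% for GAP43 and 1.27% for TUBB3.

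Set side by side, the 10 genes fell into early and late ones. Onset was read as the first layer whose mean reached 50% of the gene's highest layer mean. By this measure MAP2 and DCX were on in VZ, STMN1 came on in ISVZ, TUBB3 and NEFLli1 in OSVZ, and GAP43, STMN2, MAPT, MAP1B and NEFM in CP. The measure is relative to each gene's own highest layer, so a later gene is not absent before its onset. In VZ, STMN2 averaged 389 and TUBB3 317 scaled FPKM, against 143 for MAP2 and 174 for DCX. Among all genes tested, 84.5% were on in VZ, 4.69% came on in ISVZ, 6.13% in OSVZ and 4.65% in CP. Of the 10 genes, 9 had their highest layer mean in CP, while 65.0% of all genes tested had theirs in another layer, and NEFLli1 had it in OSVZ.

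**Figure D2:**
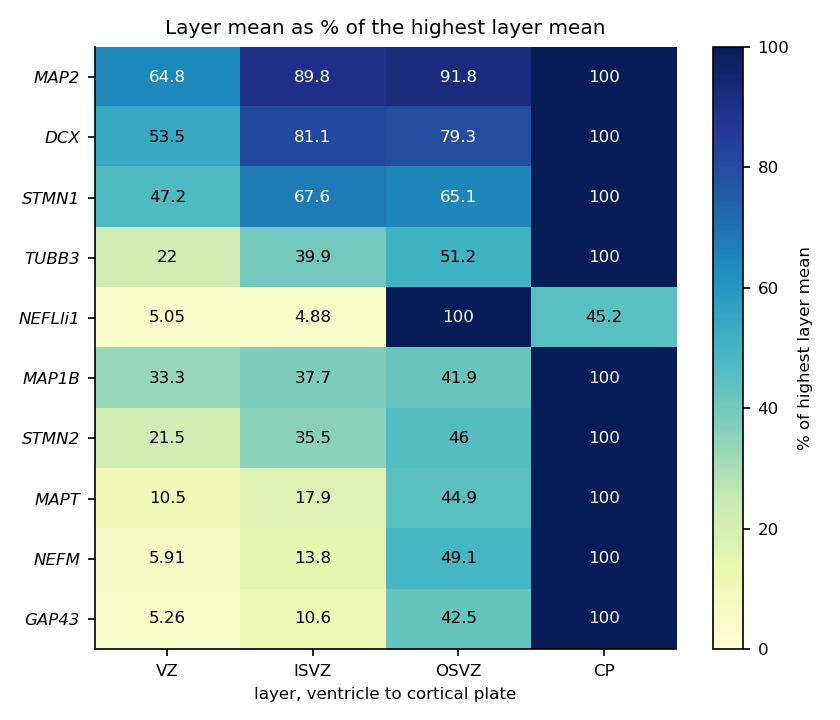
Mean level of each gene in each layer as a per cent of the gene's highest layer mean (color and number), with genes ordered by the layer of onset. MAP2 and DCX hold 64.8% and 53.5% of their CP mean in VZ, while GAP43 and NEFM hold 5.26% and 5.91%.

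Several genes sat close to the 50% line. In OSVZ, TUBB3 had 51.2% and NEFM 49.1% of the CP mean, and in VZ, DCX had 53.5% and STMN1 47.2%. The other genes with onset in CP were not far below the line in OSVZ: STMN2 had 46.0%, MAPT 44.9%, GAP43 42.5% and MAP1B 41.9%. The order moved when a library was left out, an alternative chosen after seeing the data. Without OSVZ 2, the onset of GAP43, MAPT and NEFM was OSVZ. GAP43 also moved to OSVZ without OSVZ 1, and NEFM without CP 1 or CP 3. TUBB3 moved to CP without OSVZ 3 or CP 1, STMN1 to VZ without VZ 3 or CP 2, and DCX to ISVZ without VZ 1. MAP1B, MAP2, STMN2 and NEFLli1 kept their layer in each of the 12 sets with 1 library left out.

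Step by step, calls among the 10 genes were most frequent on entry to the CP. All 10 passed the test over the 4 layers, as did 51.8% of all genes tested, and all 10 were higher in CP than in VZ, as were 23.9% of all genes tested. CP exceeded OSVZ for 6 of 10 (STMN2, MAPT, MAP1B, TUBB3, GAP43 and NEFM), where 13.7% of all genes tested were higher. OSVZ exceeded ISVZ for 2 of 10 (MAPT and NEFLli1), where 0.482% were, and ISVZ exceeded VZ for 1 of 10 (TUBB3), where 1.54% were. The adjusted threshold was harder to reach at the OSVZ step, where 85 of all genes tested passed, against 4371 at the CP step. GAP43 and NEFM had their larger step into OSVZ, yet only their step into CP passed. By size, the largest of a gene's 3 steps was into CP for 4 genes, into OSVZ for 4 and into ISVZ for 2. The test over the 4 layers lost DCX and MAP2 without VZ 2 or VZ 3, and STMN1 without VZ 2 or CP 2, with adjusted p-values between 0.0519 and 0.0738. None of the 10 was called lower in an outer layer than in the layer below it. Of all 14101 genes tested, 7.18% were called lower at the ISVZ step, 17 genes at the OSVZ step and 17.3% at the CP step.

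The median log2 difference of the 10 genes was 0.64 into ISVZ, 0.38 into OSVZ and 0.97 into CP, and 2.13 for CP minus VZ. The same medians over all genes tested were -0.01, -0.003, -0.04 and -0.06. The libraries of the outer layer all lay above those of the inner one for 6, 4 and 8 of the 10 genes at the 3 steps, where 11.1%, 12.9% and 18.6% of all genes tested did, and for 10 of 10 between CP and VZ, where 26.8% did. Neighbouring steps share the libraries of a layer, so a high OSVZ value raises the step into OSVZ and lowers the step out of it.

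**Figure D3:**
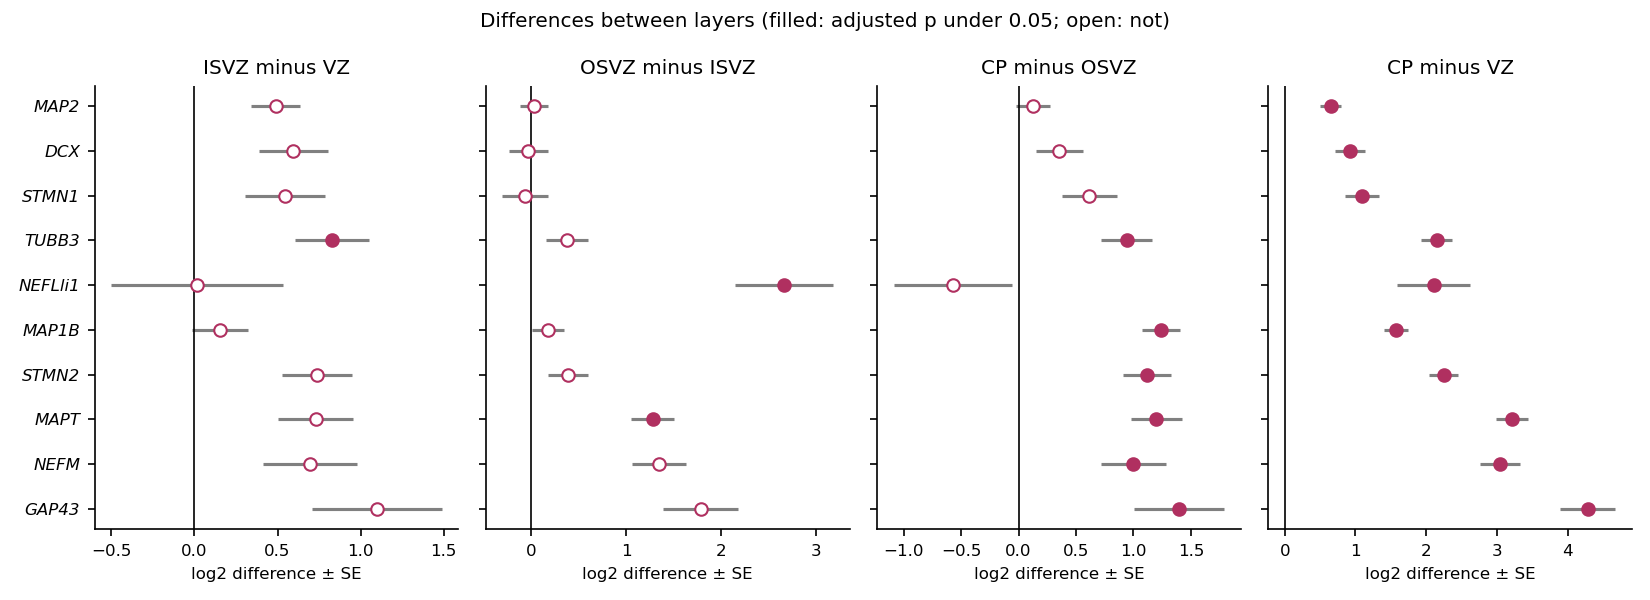
Log2 difference ± SE of each gene for ISVZ minus VZ, OSVZ minus ISVZ, CP minus OSVZ and CP minus VZ (horizontal axes, each with its own range); filled points have an adjusted p under 0.05. All points are filled for CP minus VZ, 6 for CP minus OSVZ, 2 for OSVZ minus ISVZ and 1 for ISVZ minus VZ.

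With 1 added to each level, the members of 3 of 4 pairs of related genes changed unequally across the layers. For each pair the log2 ratio within a library, which cancels the scaling of the library but for the added 1, was tested over the layers by exact permutation of the F statistic, two-sided, with the adjustment over the 4 pairs. The axonal over the dendritic protein, MAPT over MAP2, averaged -2.30 ± 0.43 in VZ, -2.06 ± 0.22 in ISVZ, -0.81 ± 0.48 in OSVZ and 0.26 ± 0.05 in CP (SD, n = 3 each; exact permutation p = 0.00039, adjusted p = 0.00156). Tau transcripts per length were thus below those of MAP2 in every library of the 3 inner layers and above them in every CP library. The antisense overlap of MAP2 applies to this ratio.

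The ratio of GAP43 to DCX averaged -3.47 ± 0.95, -2.97 ± 0.31, -1.16 ± 1.16 and -0.11 ± 0.16 in VZ, ISVZ, OSVZ and CP (exact permutation p = 0.00318, adjusted p = 0.00424). In OSVZ 3 it was 0.18, above every CP library, while OSVZ 1 and OSVZ 2 had -1.77 and -1.88. STMN2 over STMN1 averaged -1.82 ± 0.02, -1.63 ± 0.11, -1.18 ± 0.42 and -0.67 ± 0.19 (exact permutation p = 0.00227, adjusted p = 0.00424), so STMN1 was the more abundant stathmin per length in every layer. NEFM over TUBB3 averaged -7.45 ± 0.26, -7.58 ± 0.44, -6.61 ± 0.65 and -6.55 ± 0.56, a difference that did not pass (exact permutation p = 0.0788, adjusted p = 0.0788). Without OSVZ 2 its adjusted p by the same exact permutation test was 0.0282. NEFM averaged 0.837 scaled FPKM in VZ and 1.96 in ISVZ, where the added 1 weighs heavily on this ratio. With 0.1 added in place of 1, the NEFM over TUBB3 pair passed the same test (adjusted p = 0.0168).

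OSVZ was the layer with the largest SD relative to its mean for GAP43 (64.6%), MAPT (34.0%), NEFM (43.3%) and NEFLli1 (102%), while another layer was for each of the other 6 genes. The relative SD in VZ was also large for GAP43 (56.3%), NEFM (41.4%) and NEFLli1 (76.0%), but not for MAPT (14.9%). OSVZ 3 stood at 5.18 times the mean of OSVZ 1 and OSVZ 2 for NEFLli1, 2.78 times for GAP43, 1.70 times for MAPT and 1.36 times for NEFM. For NEFM, however, OSVZ 3 (8.45) lay below OSVZ 1 (8.93), and OSVZ 2 (3.49) was the library apart. The ratio was 1.24 for TUBB3, 1.18 for STMN2 and 1.16 for MAP1B. OSVZ 3 lay below the mean of OSVZ 1 and OSVZ 2 for the early genes, at 0.689 of it for DCX, 0.719 for STMN1 and 0.961 for MAP2. For MAP2 it still lay above OSVZ 2 (197 against 194). The summed level of 6 projection neuron markers (NEUROD2, NEUROD6, TBR1, BCL11B, MEF2C and RBFOX3) was lowest in OSVZ 3, with 606, 539 and 352 scaled FPKM in OSVZ 1, 2 and 3. The summed level of 7 interneuron markers was 72.6, 124 and 116 in the same libraries. What sets OSVZ 3 apart was not tested.

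**Figure D4:**
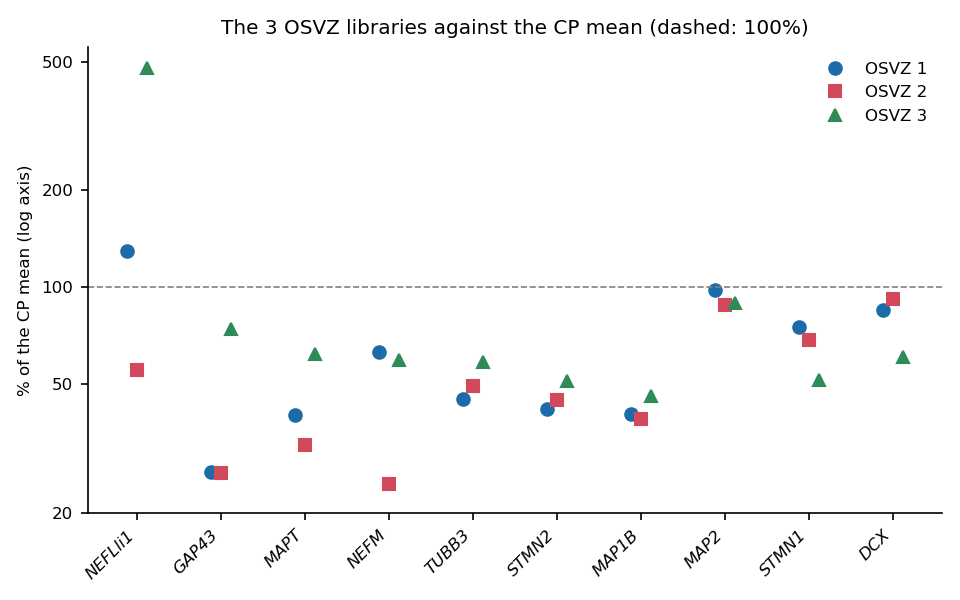
Level of each gene in OSVZ 1, OSVZ 2 and OSVZ 3 as a per cent of its CP mean (vertical log axis; dashed line at 100). OSVZ 3 is the highest of the 3 for NEFLli1, GAP43, MAPT, TUBB3, STMN2 and MAP1B and the lowest for STMN1 and DCX.

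Marker levels of several cell types changed across the layers along with the 10 genes. The summed level of the 6 projection neuron markers ranged from 60.2 to 205 scaled FPKM in VZ, 239 to 435 in ISVZ, 352 to 606 in OSVZ and 884 to 962 in CP. The 7 radial glial markers summed to 738 to 864, 304 to 401, 207 to 217 and 26.8 to 46.3 in the same order, and the 5 markers of dividing cells to 192 to 221, 136 to 248, 75.7 to 129 and 1.65 to 3.87. All markers of these 3 lists reached 1 scaled FPKM in some library. Interneurons, which also make DCX and TUBB3, had their highest median sum in ISVZ (449, against 309 in VZ) and their lowest in CP (51.5). Their sums over 7 markers were 255 to 382 in VZ, 129 to 485 in ISVZ, 72.6 to 124 in OSVZ and 20.04 to 55.2 in CP. The summed level of the 4 meninges markers was highest in CP, like most of the 10 genes, at 2.17 to 7.73 in VZ, 0.527 to 1.32 in ISVZ, 1.23 to 1.28 in OSVZ and 14.2 to 19.0 in CP, although DCN and COL1A1 among them stayed under 1 scaled FPKM in every library. The 4 astrocyte markers summed to 117 to 200 in VZ, 26.0 to 59.0 in ISVZ, 9.28 to 35.2 in OSVZ and 0.810 to 2.98 in CP. The sums for intermediate progenitors, oligodendrocyte precursors, microglia, endothelium and red cells each had their lowest layer median in CP. The 3 choroid plexus markers found summed to 36.6 to 2614 in VZ, and all 10 genes kept their CP minus VZ call without VZ 2, the library that holds the highest sum. The part of cell makeup in the gradients was not tested.

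The wider growth cone and microtubule machinery was described with 8 lists of 133 genes, of which 130 were found and 109 were tested, and 6 were listed at 0 in every library. Of the 109, CP was higher than VZ for 63, lower for 17 and not past the threshold for 29, where 23.9% and 28.7% of all genes tested were higher and lower. The median log2 difference was 0.56 over the 109 genes, against 2.13 for the 10 genes above and -0.06 for all genes tested. CP exceeded OSVZ for 32 and lay below it for 10, where 13.7% and 17.3% of all genes tested did, and ISVZ exceeded VZ for 13 and lay below it for 6, where 1.54% and 7.18% did. OSVZ exceeded ISVZ for 1 gene (CAMSAP3, which caps microtubule minus ends), where 0.482% did.

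Growth cone proteins and other stathmins all passed the test: 14 of 17 were higher in CP than in VZ and 3 were lower, with a median of 1.16. STMN4, a further neuronal stathmin, averaged 29.1, 47.0, 83.0 and 184 scaled FPKM in VZ, ISVZ, OSVZ and CP and rose by 2.61 ± 0.18 in CP relative to VZ. RTN1, a reticulon of the neuronal endoplasmic reticulum, rose by 2.39 ± 0.19, the axonal adhesion protein L1CAM by 2.15 ± 0.24 and the semaphorin mediator CRMP1 by 1.87 ± 0.11. BASP1, a growth cone membrane protein like GAP43, rose by 1.40 ± 0.13 but differed from it in profile, with 275, 449, 674 and 724 scaled FPKM. The 3 that fell were DPYSL4 (-0.73), MARCKS (-0.72) and GPM6B (-0.66), of which GPM6B is also made by glia.

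Actin regulators of the growth cone were mixed, with 7 higher, 2 lower and 5 of 14 not past the threshold, and a median of 0.25. ABLIM1, which links actin to guidance receptors, rose by 2.31 ± 0.28 and CORO1A by 1.22 ± 0.16, while ENAH, which extends actin filaments at the leading edge, fell by 0.98 (SE 0.11) and CFL2 fell by 0.48. PFN2, a neuronal profilin, differed by -0.59 ± 0.32 (adjusted p = 0.149), which passed without ISVZ 1 (adjusted p = 0.0172). CFL1, cofilin, rose by 0.60 ± 0.17, a call lost without VZ 3 (adjusted p = 0.0546).

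The other microtubule-associated proteins split 8 higher, 1 lower and 6 of 15 not past the threshold, with a median of 0.52. The doublecortin relative DCLK1 rose by 1.65 ± 0.14, CAMSAP3 by 1.64 ± 0.14 and the dynein regulator NDEL1 by 1.45 ± 0.12. DCLK2, a second doublecortin-like kinase, went the other way and fell by 0.84 (SE 0.14), with 46.1, 53.2, 35.1 and 25.2 scaled FPKM through the layers, against 46.6, 51.3, 62.1 and 149 for DCLK1. Plus-end proteins had 10 higher, 0 lower and 6 of 16 not past the threshold. Among them NAV3 rose by 1.97 ± 0.14, MAPRE2, an end-binding protein, by 1.76 ± 0.13 and CLASP2, which stabilises plus ends, by 1.26 ± 0.11, while CKAP5, a microtubule polymerase that also serves the mitotic spindle, differed by -0.05 ± 0.09 (adjusted p = 0.657).

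Enzymes that fold, modify or sever tubulin had 11 higher, 3 lower and 6 of 20 not past the threshold, with a median of 0.57. VASH2, which removes the end tyrosine of alpha-tubulin, rose by 1.81 ± 0.19, AGTPBP1, which shortens polyglutamate chains, by 1.60 ± 0.13, the alpha-tubulin acetylase ATAT1 by 1.46 ± 0.13 and the polyglutamylase TTLL7 by 1.43 ± 0.14. SIRT2, a deacetylase of tubulin, fell by 0.46. Of the kinases that act on these proteins 9 of 11 were higher and 0 were lower. CDK5R1, the neuronal activator of CDK5, rose by 1.27 ± 0.13, MAPK8 by 1.25 ± 0.12 and CDK5, which phosphorylates tau and DCX, by 0.65 ± 0.14.

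Tubulins tested under their own symbol and intermediate filaments did not move as groups towards CP. Abundant tubulins listed under copy names are not among them and are given below. Of 7 tubulins tested 3 were higher and 2 were lower, with a median of 0.14. TUBB4A rose by 1.48 ± 0.21 and TUBB2A by 0.78 ± 0.15, while TUBD1, delta-tubulin of centrioles, fell by 1.84 (SE 0.17). The limma call of TUBB2A was lost with quantile normalisation (0.32, adjusted p = 0.0783). TUBB6 fell by 1.70 (SE 0.58), a call lost without VZ 2, CP 2 or CP 3 (adjusted p 0.115, 0.0714 and 0.0685). Among 9 intermediate filament genes INA, the neuronal internexin that assembles with neurofilaments, was the only one higher in CP, by 2.38 ± 0.31. The other 6 that passed were lower, among them VIM, GFAP and NES of radial glia, with -4.49 ± 0.22, -2.87 ± 0.38 and -2.77 ± 0.15, and the nuclear lamins LMNB1, LMNB2 and LMNA.

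**Figure D5:**
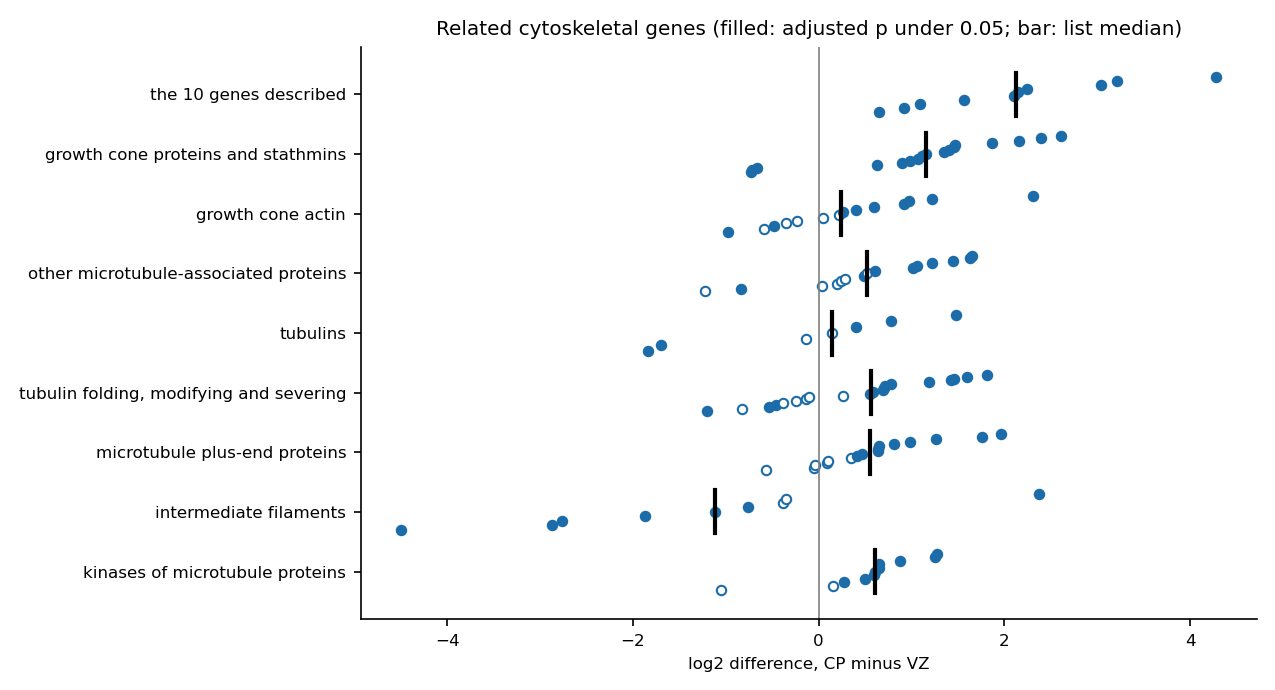
Log2 difference of CP minus VZ for each tested gene (points; filled with an adjusted p under 0.05) of the 10 genes described and of the 8 related lists, with the list median as a bar. Growth cone proteins and stathmins lie mostly to the right with a median of 1.16, and intermediate filaments mostly to the left with a median of -1.12.

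Some central tubulin, kinase and lissencephaly genes were near 0 under their own symbol and expressed under a copy name, and these copies were chosen after their values were seen. TUBA1A, the main alpha-tubulin of young neurons, was listed at 0, while TUBA1Ali3 (chr7:51757530-51762173) averaged 2680 ± 567, 3544 ± 794, 3512 ± 269 and 6843 ± 981 scaled FPKM in VZ, ISVZ, OSVZ and CP. It rose by 1.36 ± 0.22 in CP relative to VZ (adjusted p = 0.000292) and by 0.96 ± 0.22 into CP (adjusted p = 0.00724), the step called for 6 of the 10 genes. TUBA1Ali2 and TUBA1Cli1 were also higher in CP than in VZ, by 1.63 ± 0.27 and 0.83 ± 0.19 (adjusted p = 0.000382 and 0.00322). TUBB5li3 was higher by 0.61 ± 0.15 (adjusted p = 0.00615), but its step into CP was 0.23 ± 0.15 (adjusted p = 0.284). TUBB4Bli1 ran the other way, with 31.6, 24.3, 22.7 and 22.7 scaled FPKM through the layers and a CP minus VZ difference of -0.47 ± 0.17 (adjusted p = 0.0375). The kinase copy MARK1li1 rose by 0.61 ± 0.13 (adjusted p = 0.00203), while MARK2li1 differed by 0.12 ± 0.11 (adjusted p = 0.399). PAFAH1B1li1, a copy of the lissencephaly gene PAFAH1B1, rose by 0.99 ± 0.10 (adjusted p = 8.08e-06). NDE1li1, whose namesake NDE1 acts with PAFAH1B1 in dividing progenitors, fell by 3.17 (SE 0.20, adjusted p = 3.38e-07), with 9.41, 7.09, 4.32 and 0.142 scaled FPKM. Which locus produced the reads of a copy cannot be told from these tables.

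Genes with the most similar profiles were taken as the 3 highest Pearson r of log2(scaled FPKM + 1) over the 12 libraries, which share 4 layers, so a high r is a description only. For GAP43 they were EFNA3, an ephrin, SYNGR3, a synaptic vesicle protein, and ASPHD1 (r = 0.993, 0.992 and 0.991). For MAPT they were the glutamate receptor GRM5, the protein kinase A subunit PRKAR1B and XKR4 (r = 0.995, 0.994 and 0.994). STMN2 was most like the synaptic calcium sensor SYT1, TRIM36 and NECAP1 (r = 0.987, 0.981 and 0.979), and NEFM most like the GABA receptor subunit GABRA5, the channel HCN4 and the calcium release channel RYR3 (r = 0.987, 0.984 and 0.981).

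MAP1B was most like DPYSL3, a collapsin response mediator, MTPN and the dynein chain DYNC1LI1 (r = 0.984, 0.983 and 0.980). TUBB3 was most like PAFAH1B2, NSG1 and GDAP1 (r = 0.992, 0.975 and 0.975). The early genes had looser neighbours: ZC4H2, CSNK2A1 and RIPPLY2 for STMN1 (r = 0.969, 0.963 and 0.962), KLHL7, LANCL1 and ZNF20li1 for DCX (r = 0.976, 0.961 and 0.957), and the splicing regulator RBFOX2, FRY and AKAP9 for MAP2 (r = 0.954, 0.941 and 0.927). NEFLli1 had CREG2, TBC1D24 and the synapsin SYN2 (r = 0.960, 0.951 and 0.948). Among the 10 genes the highest r was 0.984 for GAP43 and MAPT, and the lowest was 0.292 for DCX and NEFLli1.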

How the data were processed

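Each library came as its own table of FPKM per gene, which the authors deposited with a low and a high bound, in a Cufflinks layout per the file headers. The submitters' processing notes name HISAT2 and Cufflinks. No source used here gives their versions, the build, the annotation or strand use, so coordinates are the tables' own, counted from 1. Table names carry day 35 where the labels give embryonic day 37; the labels were followed. Each table holds 81792 entries for 81418 gene IDs. Entries of the 360 IDs listed more than once were summed, and 4 IDs with a failed status were left out. No pair of libraries was identical (0 pairs). FPKM gives no read depth, so precision rests on the 3 libraries of a layer and on the deposited bounds.

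Scaling factors per library were median ratios to a geometric mean profile of the 10200 genes that reached 1 FPKM in every library. Genes with a scaled FPKM of 1 or above in 3 or more libraries entered limma (version 3.58.1, R 4.3.3; log2 of scaled FPKM plus 1, intensity trend, all 12 libraries, 8 residual degrees of freedom). P-values are two-sided with Benjamini-Hochberg adjustment over 14101 genes at a threshold of 0.05. The fit was tested on simulated data. Permutation p-values cover all 369600 assignments of libraries to layers, and the smallest they can give is 6.49e-05.

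The 10 genes and the lists were chosen with earlier results of these data known. From each list, the text names up to 4 genes with the largest CP minus VZ difference past the threshold and up to 2 others by level. Of these, it gives those with a role worth a clause; DPYSL4, MARCKS, GPM6B, CFL2 and LMNA lie outside the rule and were chosen after their values were seen. The alternatives were FPKM as deposited, quantile normalisation, equal totals, a pseudocount of 0.1, no filter, a filter of 5, a replicate block and each library left out, 19 in all. One marker of projection neurons is not reported here and was left out of the marker sums. Sequences are not used here.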

Additional observations from a re-analysis of the deposited data

How the results depend on the processing

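CP minus VZ stayed past the threshold for all 10 genes in each of the 19 alternatives, and the count of genes called by CP minus OSVZ ran from 4 to 7. The count called at the ISVZ step, 1, was 2 with FPKM as deposited, 0 with quantile normalisation, 2 with equal totals, 0 with no filter, 2 with a filter of 5 and 3 with the replicate block. The 2 as deposited were STMN2 and MAP2 (limma adjusted p = 0.0410 and 0.0395), while TUBB3 lost its call there (adjusted p = 0.0551). At the OSVZ step the count of 2 was 1 as deposited, 0 with equal totals, 0 with a pseudocount of 0.1, 0 with no filter, 4 with a filter of 5 and 4 with the replicate block. Over all genes, the ISVZ step called 1229 and gave 787 with no filter and 715 with a filter of 5. Its split was 217 higher and 1012 lower, against 370 higher and 795 lower with quantile normalisation. For all genes the OSVZ step called 85, and gave 54 as deposited, 156 with quantile normalisation, 38 with equal totals, 19 with a pseudocount of 0.1, 8 with no filter, 299 with a filter of 5 and 206 with the replicate block. The shape test called 2291 genes, and 1291 with no filter, which tests more genes. NEFM over TUBB3 passed with a pseudocount of 0.1 (log2 difference of CP minus VZ 1.82, exact permutation, adjusted p = 0.0168). With quantile normalisation 0 genes came on in ISVZ, since STMN1 reached 50% in VZ, and STMN2 came on in OSVZ. NEFM came on in OSVZ as deposited and with equal totals. With no filter the test over the layers lost DCX and STMN1, and GAP43 and NEFM lost their CP step (adjusted p = 0.0876 and 0.0847).

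The replicate block joins libraries of the same number, which the labels do not tie to an animal. Of 18 such pairs, 16 had a correlation of their deviations from the layer means over 0.1 (range 0.0629 to 0.425), and each of the 12 libraries correlated best with its own number, a hint from the data and not from the design. The block added calls of MAP2 and NEFM at the ISVZ step, of GAP43 and NEFM at the OSVZ step and of STMN1 at the CP step.

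With 1 library left out, the counts over all genes ranged from 403 to 1374 at the ISVZ step, 2 to 556 at the OSVZ step, 3100 to 4397 at the CP step, 6453 to 7469 for CP minus VZ, 6280 to 7291 over the 4 layers and 1407 to 2795 for the shape. For the 10 genes they ranged from 0 to 3, 0 to 4, 4 to 6, 10 to 10, 7 to 10 and 1 to 2 in the same order. Genes first at 50% numbered 1 to 3 in VZ, 0 to 2 in ISVZ, 1 to 5 in OSVZ and 2 to 6 in CP. The CP minus VZ difference of the log2 ratio ranged from 1.06 to 1.25 for STMN2 over STMN1, 3.05 to 3.91 for GAP43 over DCX, 2.37 to 2.79 for MAPT over MAP2 and 0.628 to 1.18 for NEFM over TUBB3.

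Some differences that did not pass changed sign, the CP step and the shape of NEFLli1 (-0.57 and 0.29 with all libraries) on leaving out OSVZ 3 alone. For the OSVZ step of DCX it was 0.0612 with quantile normalisation and 0.00809 with equal totals, for the shape of NEFM 0.0367 with a pseudocount of 0.1, for CP minus VZ of MAP7D1 -0.0372 as deposited, -0.0363 with quantile normalisation and -0.0115 with equal totals, and for TUBE1 0.00397 with quantile normalisation. With 1 library left out the range was -0.40 to 0.0488 for the shape of GAP43, -0.18 to 0.0922 for the OSVZ step of STMN1, -0.13 to 0.0716 for the shape of STMN1, -0.00834 to 0.32 for the OSVZ step of MAP1B, -0.0305 to 0.10 for the OSVZ step of MAP2, -0.15 to 0.15 for the OSVZ step of DCX, -0.17 to 0.0454 for the shape of TUBB3, -0.25 to 0.0333 for the shape of NEFM, -0.11 to 0.25 for the ISVZ step of NEFLli1, -1.20 to 0.19 for the CP step of NEFLli1, -0.0853 to 0.61 for the shape of NEFLli1, -0.0104 to 0.13 for CP minus VZ of MAP7D1, -0.11 to 0.28 for CP minus VZ of TUBG2, -0.13 to 0.12 for CP minus VZ of CLIP3 and -0.13 to 0.00496 for CP minus VZ of CKAP5. The cause of these changes was not tested. Calls of DPYSL4, MARCKS, GPM6B, CFL2, LMNA and the copies were not run through the alternatives. No read counts were used, so a limit of detection cannot be given, and values of NEFM and NEFLli1 in VZ and ISVZ near 1 scaled FPKM are the least precise.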
